A study of Mus musculus with 186 samples.

Results

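The 10 genes described here encode surface proteins with which mouse mammary epithelial cells are sorted or enriched for stem and progenitor cells: Cd24a (CD24), Itgb1 (CD29), Itga6 (CD49f), Epcam (CD326), Itgb3 (CD61), Itga2 (CD49b), Prom1 (CD133), Cd44, Procr and Tspan8. They were chosen by name, with earlier results of these data known, and are 10 of the 25275 genes that carry a symbol in the count files. The question was whether the transcripts follow the proteins on which the cells were gated, and which of them mark rare cells. The cells came from the mammary gland of FVB/NJ mice labelled Adult, untreated, 8 mice in all. The study sorted Lin-CD29hiCD24+ cells as basal and Lin-CD29loCD24+ cells as luminal, where Lin- removed cells with CD31, CD45 or TER119 on their surface (endothelial, white and red blood cells). Capture used the Fluidigm C1 (a chip that isolates cells in separate chambers), and full-length cDNA was sequenced from 96 basal and 90 luminal cells. The PCR plates were A and B for the basal and B and C for the luminal population, and only plate B carried cells of each.

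The mammary duct has an outer layer of contractile basal cells on the basement membrane and an inner layer of luminal cells. Integrins are pairs of an α and a β chain that bind the matrix: CD29 is the common β chain, CD49f its laminin-binding and CD49b its collagen-binding partner, and CD61 pairs mainly with the αv chain. CD24 is a small lipid-anchored glycoprotein, EPCAM an epithelial adhesion protein, CD44 a hyaluronan receptor, CD133 a pentaspan protein of membrane protrusions, PROCR the endothelial protein C receptor and TSPAN8 a tetraspanin. A surface gate reads protein at a threshold, and a transcript count reads RNA in the cell at the moment of lysis, so agreement between them is not given.

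After the study's own thresholds on reads and genes, 72 basal cells (50 on plate A, 22 on plate B) and 76 luminal cells (24 on plate B, 52 on plate C) were kept, with 69933 to 1968860 and 105636 to 3226960 counts per cell. The labels tie no cell to a mouse. Each population is therefore 1 sample, cells are not replicates, and no test between the populations was possible. Intervals are exact, at 95%, and cover counting error only. Those of levels and ratios take each read as independent, although the reads carry no molecular identifiers, so they may be too narrow. Those of detection shares count cells. Levels are CPM, a gene's summed counts scaled to the summed counts of its population, and ratios are log2 of luminal over basal with 1 CPM added to each. The labels fitted the markers of the layers: all 10 basal markers and all 9 luminal markers were at least 2-fold higher on the side they name. A few wells went against them or carried markers of more than 1 cell type. Basal cell 90 had 2.77 CPM of summed basal and 5622 CPM of luminal markers. Luminal cell 63 had 12551 CPM of basal markers beside 3384 CPM of luminal markers. Reads of 3 or more of 12 endothelial markers were found in 7 basal wells, all on plate B, and in 13 luminal wells (3 on plate B, 10 on plate C). At equal depth of 50000 reads a basal cell of plate B also showed fewer genes (median 1575) than one of plate A (2897), against 3198 (plate B) and 3428 (plate C) in the luminal population. What part these differences had in the values below was not tested. Each ratio is therefore given also for plate B alone, for plate A against plate C, and as a range over the removal of any single cell.

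Over all plates the transcripts followed the gate for CD29 and did not separate the populations for CD24. Itgb1, with Itga6, Cd44 and Itga2, was at least 2-fold higher in basal cells, and Epcam and Tspan8 were at least 2-fold higher in luminal cells. Cd24a, Itgb3, Prom1 and Procr lay within 2-fold. Among all 14773 genes kept, 18.3% were at least 2-fold higher in basal and 28.4% in luminal cells, against 4 and 2 of the 10. The median ratio of the 10 was -0.48 and that of all genes 0.18. On plate B alone the basal side held 4 of the 10 (Itgb1, Cd44, Itgb3 and Procr) and the luminal side 3 (Epcam, Tspan8 and Cd24a), with a background of 17.2% and 41.4% of all genes, and Itgb1 and Itgb3 left the basal side there without 1 basal cell each. Procr rested there on 3 basal cells, with 4056, 9375 and 2346 CPM of summed endothelial markers. The cell at 9375 CPM had reads of only 4 of the 12 markers. For plate A against plate C the genes past 2-fold were those of all plates together, and the background was 20.1% and 27.4%.

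**Figure D1:**
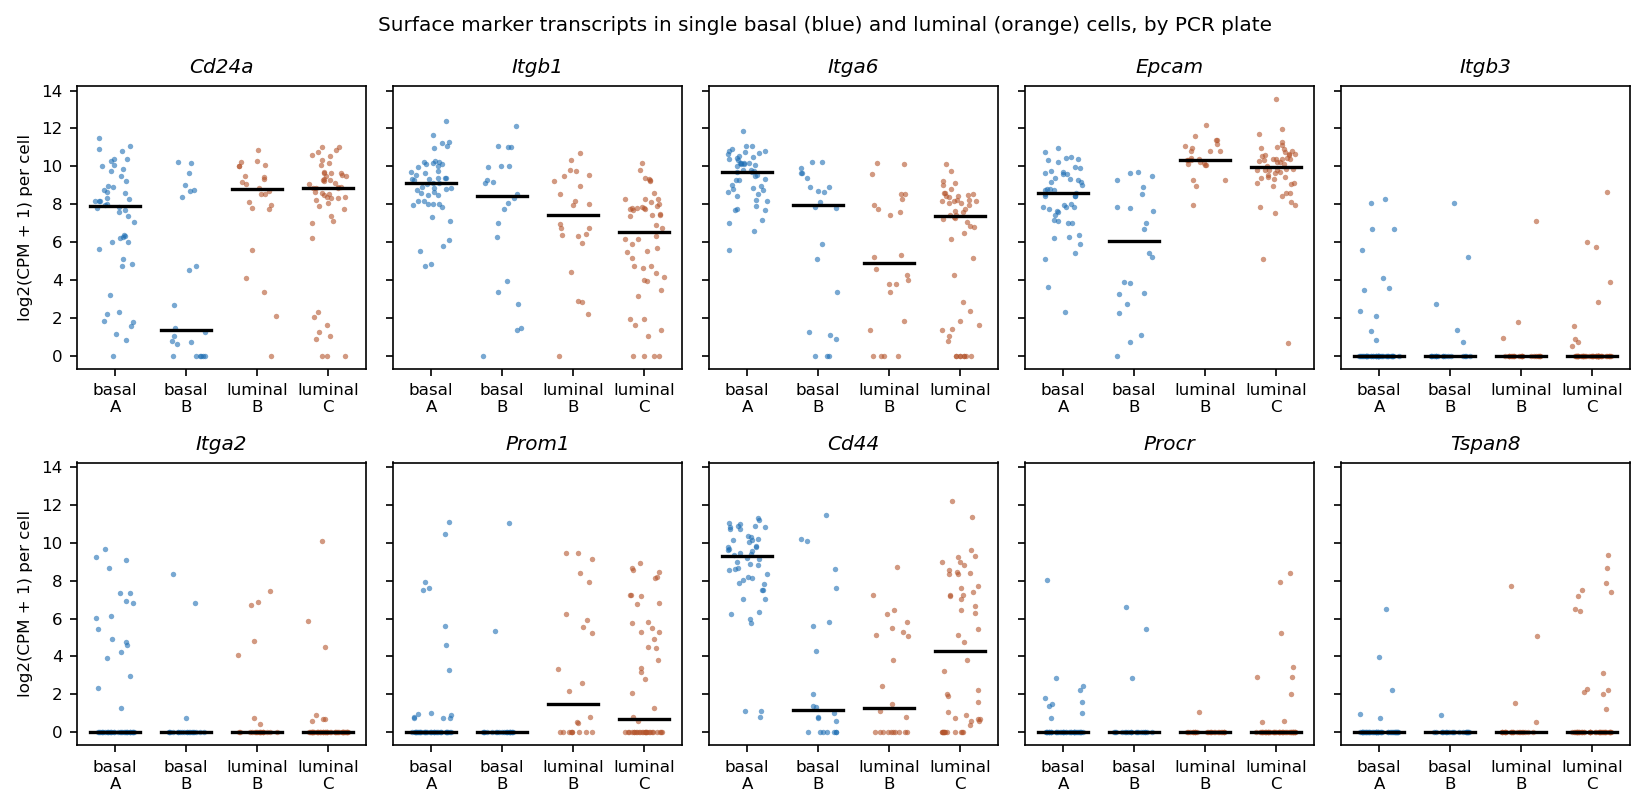
Each point is a cell, the y axis its log2(CPM + 1) of the gene named above the panel, and the x axis its population (blue basal, orange luminal) and PCR plate, with a black line at the median. Itgb1 and Itga6 sit higher in both basal groups, Epcam higher in both luminal groups, and Itgb3, Itga2, Procr and Tspan8 are at 0 in most cells of every group.

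Promoter windows, 250 bases before to 50 after an annotated start, were at hand for 7 of the 10 genes in RefSeq (GRCm38.p6), and not for Cd24a, Itga6 and Itgb3. The windows of the gated integrin Itgb1, of Cd44, which shared its direction, and of Epcam and Tspan8, which went the other way, are shown because these genes carry the contrast between the layers. Capitals mark the motifs GGGCGG (a GC box, CCGCCC on the other strand) and CACGTG (an E-box, the same on both strands). The CCAAT box, the TATA box written TATAAA and the ETS core GGAAGT were also searched on both strands and are not in these windows.
Itgb1 (chr8:128685404-128685703, plus strand): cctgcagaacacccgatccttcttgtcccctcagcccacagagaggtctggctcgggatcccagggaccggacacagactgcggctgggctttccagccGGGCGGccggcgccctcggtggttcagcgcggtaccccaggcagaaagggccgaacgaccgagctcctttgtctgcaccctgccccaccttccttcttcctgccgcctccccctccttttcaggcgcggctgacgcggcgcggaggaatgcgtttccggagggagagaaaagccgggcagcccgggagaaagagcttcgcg
Cd44 (chr2:102901616-102901915, minus strand): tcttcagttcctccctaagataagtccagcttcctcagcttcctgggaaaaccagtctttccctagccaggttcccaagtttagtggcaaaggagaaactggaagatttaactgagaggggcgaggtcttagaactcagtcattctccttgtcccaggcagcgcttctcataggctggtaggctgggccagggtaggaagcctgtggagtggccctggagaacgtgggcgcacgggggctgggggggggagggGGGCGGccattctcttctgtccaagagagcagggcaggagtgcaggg
Epcam (chr17:87635729-87636028, plus strand): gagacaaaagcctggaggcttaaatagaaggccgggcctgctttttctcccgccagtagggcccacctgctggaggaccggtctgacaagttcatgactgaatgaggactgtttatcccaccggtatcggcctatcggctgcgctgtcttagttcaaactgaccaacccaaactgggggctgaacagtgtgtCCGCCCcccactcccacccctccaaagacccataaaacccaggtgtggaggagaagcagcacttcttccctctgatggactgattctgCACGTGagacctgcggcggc
Tspan8 (chr10:115817034-115817333, plus strand): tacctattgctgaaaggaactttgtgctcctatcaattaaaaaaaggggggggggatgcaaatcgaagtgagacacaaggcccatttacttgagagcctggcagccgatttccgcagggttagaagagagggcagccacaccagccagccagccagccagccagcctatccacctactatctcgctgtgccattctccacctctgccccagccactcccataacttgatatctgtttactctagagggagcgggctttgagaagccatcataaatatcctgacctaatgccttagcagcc
Itgb1 had a GC box at -151 from the start, 67.3% G and C and 27 CpG, against a median of 52.7% and 7 over 32851 windows. Cd44 had a GC box at 3 and 6 CpG. Epcam had a GC box on the opposite strand at -58, an E-box at 30 and 11 CpG. Tspan8 held none of the 5 motifs, with 51.7% G and C and 5 CpG. Of all windows, 35.7% held a GC box and 7.15% an E-box. A match describes letters and is not a binding site.

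Cd24a (Entrez 12484, chr10:43579169-43584265) encodes the protein that both gates required. Its CPM per cell ran from 0 over a median of 177 to 2847 in basal cells, and from 0 over 456 to 2093 in luminal cells, so the populations overlapped over nearly their whole range. Summed over cells it was at 419 CPM in basal against 608 CPM in luminal cells, a ratio of 0.53 (0.52 to 0.55) that lay between 0.46 and 0.65 whichever cell was left out. On plate B the ratio was 1.41, and for plate A against plate C it was 0.21. The wider gap on plate B came with low basal cells there: the median was 1.55 CPM on plate B and 239 CPM on plate A, and 6 of the 7 basal cells without a read were on plate B. Basal plate A exceeded basal plate B by 1.05 on the log2 scale, more than luminal exceeded basal cells. At 50000 reads a Cd24a read was found in 51 of 72 basal cells (70.8%, 58.9 to 81.0) and in 64 of 76 luminal cells (84.2%, 74.0 to 91.6). All of these cells had passed a gate for the CD24 protein, yet 21 basal and 12 luminal cells gave no read at this depth.

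Itgb1 (Entrez 16412, chr8:128685654-128733579) encodes CD29, the protein whose level set the gates apart. Basal cells ran from 0 over a median of 551 to 5343 CPM and luminal cells from 0 over 113 to 1661 CPM. Of the basal cells, 60 of 72 lay above the luminal median, and 13 of 76 luminal cells lay above the basal median, so the groups overlapped while their centres were well apart. The summed level was 766 CPM in basal against 244 CPM in luminal cells, 3.13-fold higher in basal cells, with a ratio of -1.65 that moved only between -1.74 and -1.52 on leaving out a cell. It was -1.97 for plate A against plate C and -1.18 on plate B, where it rested on basal cell 70: this cell held 27.6% of the basal reads of the plate, and without it the levels were 619 and 359 CPM and the ratio -0.79, within 2-fold. Detection differed far less than level: 65 of 72 basal and 62 of 76 luminal cells had a read at 50000 reads, and on plate B it ran the other way, with 17 of 22 basal and 22 of 24 luminal cells. In luminal cells Itgb1 ran with the summed endothelial markers (Spearman rho 0.37 over 76 cells, plate B 0.28, plate C 0.45), where the summed endothelial markers ran from 0 over a median of 2.31 to 3049 CPM. Itgb1 also rose with the number of genes detected in a luminal cell (rho 0.43). Whether RNA of other cells in a well adds to the luminal Itgb1 level was not tested.

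Itga6 (Entrez 16403, chr2:71786886-71858427), the α chain with which basal cells are often enriched, showed the same direction as Itgb1 without having been gated on. It ran from 0 over 633 to 3696 CPM in basal cells and from 0 over 152 to 1172 CPM in luminal cells. Only 5 of 76 luminal cells lay above the basal median, against 59 of 72 basal cells above the luminal median. The summed levels were 765 and 211 CPM, 3.61-fold higher in basal cells, and the ratio of -1.85 stayed between -1.95 and -1.77 without any single cell. It was -2.17 for plate A against plate C and -0.90 on plate B, where it no longer reached 2-fold, since basal cells were at 945 CPM on plate A and 403 CPM on plate B. At 50000 reads it was found in all 50 basal cells of plate A, in 15 of 22 of plate B and in 50 of 76 luminal cells. On plate B alone the shares were close, 68.2% of basal cells and 62.5% of luminal cells (15 of 24). Leaving out the wells with endothelial markers put the ratio at -2.02.

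Epcam (Entrez 17075, chr17:87635979-87651127), used to tell epithelial cells apart and brighter on luminal cells in sorting, was present in nearly every cell and differed in amount. Basal cells ran from 0 over 254 to 1971 CPM, luminal cells from 0.562 over 1194 to 12130 CPM. The populations overlapped at the edges: 7 of 72 basal cells lay above the luminal median and 70 of 76 luminal cells above the basal median. The summed level was 438 CPM in basal against 1496 CPM in luminal cells, 3.41-fold higher in luminal cells. The ratio of 1.77 became 1.58 without luminal cell 45, which held 23677 of 170688 luminal reads, and 1.36 for plate A against plate C. On plate B it was 2.99, where basal cells had 209 CPM against 552 CPM on plate A. A read was found in 65 of 72 basal and 75 of 76 luminal cells at 50000 reads, so a basal cell with Epcam RNA was the rule. The luminal cell with the lowest Epcam level, number 54, had 33460 CPM of summed fibroblast markers and 233 CPM of luminal markers.

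**Figure D2:**
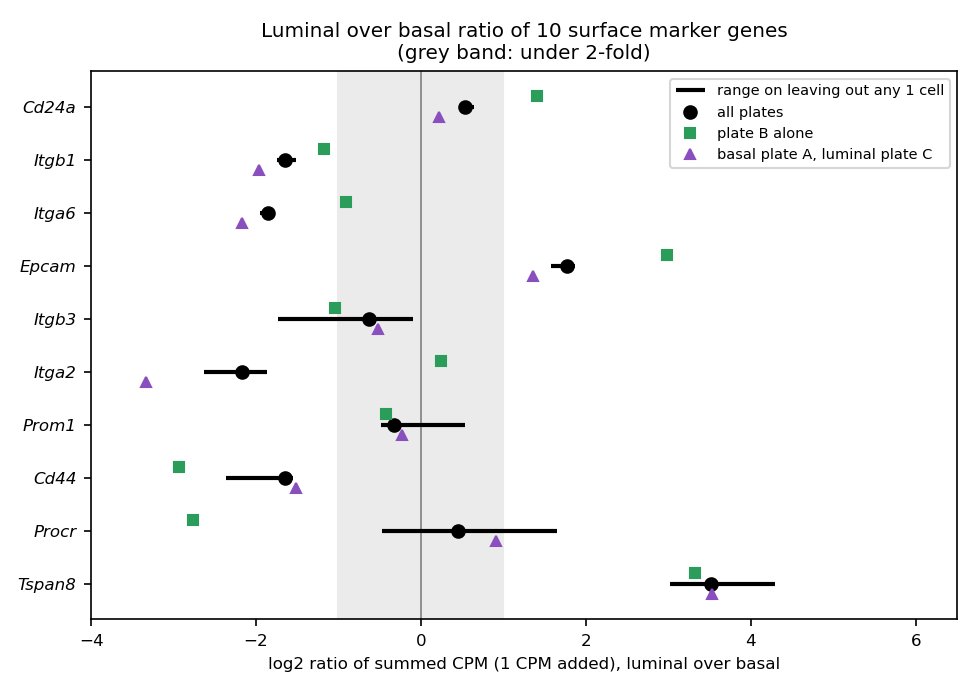
The x axis is the log2 ratio of summed CPM (1 CPM added), luminal over basal, for each of the 10 genes on the y axis, with dots for all plates, bars for the range on leaving out any 1 cell, squares for plate B and triangles for basal plate A against luminal plate C. Itgb1, Epcam, Cd44 and Tspan8 stay outside the grey 2-fold band in every setting shown, although Itgb1 on plate B falls within it (-0.79) without basal cell 70, which is not drawn. Itga2 crosses 0 on plate B and the bars of Prom1 and Procr cross 0.

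The markers used to divide the luminal layer or to find progenitors in it, Itgb3, Itga2 and Prom1, were sparse. Itgb3 (Entrez 16416, chr11:104608000-104670476) encodes CD61, a marker of luminal progenitors in some strains. It was at 0 in 55 of 72 basal and 64 of 76 luminal cells, and reached 10 CPM in 10 basal and 5 luminal cells. Its highest cells were luminal cell 41 (401 CPM) and basal cells 12 (314 CPM), 54 and 71 (263 CPM each). The summed levels were 13.1 CPM in basal against 8.08 CPM in luminal cells, a ratio of -0.64. That value had no fixed size: it was -1.73 without luminal cell 41, which held 60.3% of the luminal reads, and -0.09 without basal cell 12, which held 34.8% of the basal ones. On plate B it was -1.04, where basal cell 71 gave 260 of 301 basal reads and also carried 4279 CPM of endothelial markers. At 50000 reads a read was found in 10 of 72 basal cells (13.9%, 6.87 to 24.1) and 6 of 76 luminal cells (7.89%, 2.95 to 16.4), wide intervals over cells that are not replicates.

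Itga2 (Entrez 16398, chr13:114833081-114932100), the collagen-binding α chain CD49b, reached 10 CPM in 18 of 72 basal cells, 16 of them on plate A, and in 8 of 76 luminal cells, 5 of them on plate B. The highest basal cells were number 32 (814 CPM), 42 (615 CPM) and 15 (536 CPM), with 43000, 8404 and 12056 CPM of summed basal markers. Luminal cell 86 alone had 1081 CPM. The summed levels were 49.6 and 10.2 CPM and the ratio was -2.17, between -2.63 without luminal cell 86 and -1.86 without basal cell 32. Plate B did not show this difference: basal cells had 16.6 CPM and luminal cells 19.8 CPM there, a ratio of 0.24, against -3.33 for plate A against plate C. The plate B ratio was -0.45 without luminal cell 1 and 1.71 without basal cell 76, so on that plate Itga2 had no settled direction. At 50000 reads it was detected in 15 of 72 basal (20.8%, 12.2 to 32.0) and 8 of 76 luminal cells (10.5%, 4.66 to 19.7).

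Prom1 (Entrez 19126, chr5:43993621-44102047) encodes CD133, which marks luminal cells with hormone receptors in sorting. Its summed level and its detection gave opposite orders. The sum was 105 CPM in basal against 83.5 CPM in luminal cells, a ratio of -0.33, but 3 basal cells held 90.5% of the basal reads: number 55 with 2158 CPM, 92 with 2139 CPM and 19 with 1401 CPM. Without cell 92 the basal level was 57.5 CPM and the ratio 0.53. Those 3 cells had 23058, 37145 and 16271 CPM of summed basal markers and 0, 1.04 and 0 CPM of luminal progenitor markers. In luminal cells Prom1 was low and spread wide, with a highest value of 717 CPM and 10 CPM or more in 29 of 76 cells. At 50000 reads it was detected in 29 of 76 luminal cells (38.2%, 27.2 to 50.0) and 9 of 72 basal cells (12.5%, 5.88 to 22.4), intervals over cells that are not replicates. By plate these shares were 41.7% (luminal B), 36.5% (luminal C), 14.0% (basal A) and 9.09% (basal B). Of the 29 luminal cells at 10 CPM or more, 20 lay above the luminal median of mature luminal markers and 13 above that of progenitor markers. The rho of Prom1 was 0.12 with the first list and 0.01 with the second, and it rose with the genes detected in a cell (0.43).

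Cd44 (Entrez 12505, chr2:102811141-102901669), the hyaluronan receptor used to enrich stem cells, was higher in basal cells in sum, while on the shared plate it was found about as often in each population. Basal cells ran from 0 over 385 to 2870 CPM and luminal cells from 0 over 6.41 to 4692 CPM. Of the basal cells, 55 of 72 lay above the luminal median, and 9 of 76 luminal cells lay above the basal median, among them the highest cell of all. The summed levels were 625 and 199 CPM, a ratio of -1.65. It was -2.36 without luminal cell 45, which held 40.4% of the luminal reads and left 121 CPM, and -1.56 without basal cell 86. For plate A against plate C it was -1.52. On plate B it was -2.93, where 3 basal cells held 89.8% of the basal reads, and -2.02 without basal cell 86, which held 49.9% of them and left 152 CPM. Basal plates differed too: 793 CPM on plate A against 288 CPM on plate B, with medians of 629 and 1.28 CPM, and luminal cells had 36.9 CPM on plate B (median 1.46) and 276 CPM on plate C. At 50000 reads it was found in 46 of 50 basal cells of plate A and in 8 of 22 of plate B (36.4%), and in 36 of 76 luminal cells, of which 9 were among the 24 of plate B (37.5%). Cd44 was also, of the 10 genes, the one that rose most with the number of genes detected in a basal cell (rho 0.52, and 0.39 in luminal cells).

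Within the luminal layer Cd44 ran with progenitor markers (Elf5, Kit, Aldh1a3 and 5 others) and against mature luminal markers (Esr1, Pgr, Foxa1 and 6 others). Over 76 luminal cells at 50000 reads, rho was 0.37 with the first list and -0.44 with the second. On plate B these were 0.23 and -0.25, on plate C 0.43 and -0.49, and at full depth 0.50 and -0.50. Of the 37 luminal cells with 10 CPM or more of Cd44, 27 lay above the luminal median of progenitor markers and 12 above that of mature markers. Epcam also ran with the progenitor list in luminal cells, rho 0.34 (0.52 on plate B, 0.29 on plate C), while Cd24a (0.13), Itga6 (-0.04) and Itgb1 (-0.19) did not. Luminal cell 45, with the highest Cd44 and the highest Epcam level, also had the highest progenitor value, 39819 CPM. These values share the cells, their depth and a common denominator, and are given as a description.

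**Figure D3:**
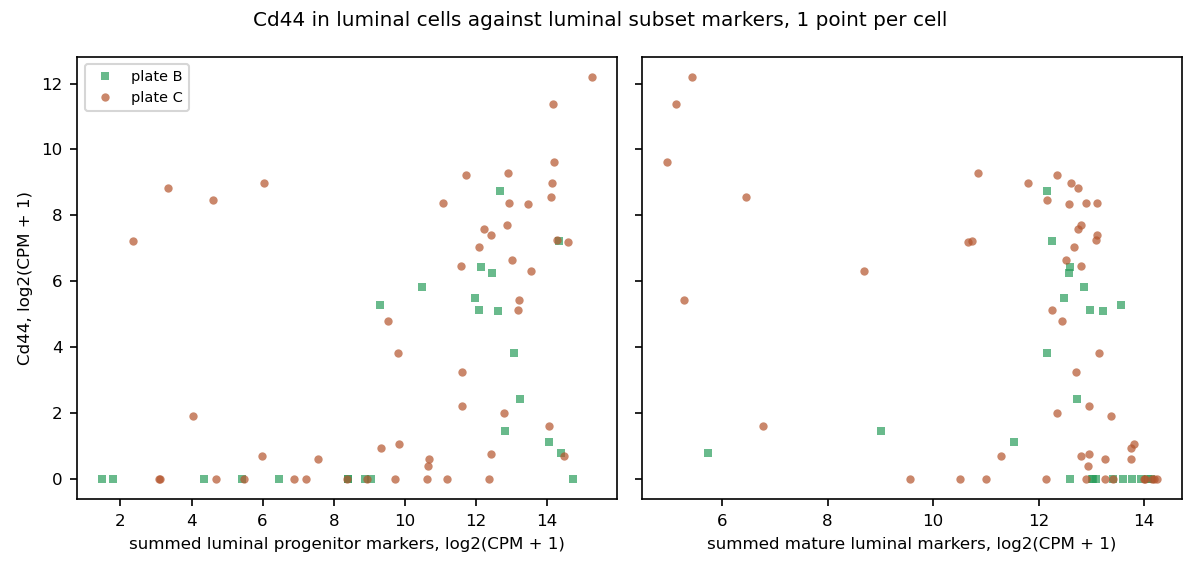
Each point is a luminal cell (squares plate B, circles plate C), the y axis its Cd44 level and the x axes the summed CPM of 8 luminal progenitor markers (left) and 9 mature luminal markers (right), all as log2(CPM + 1). High Cd44 cells gather at the right of the first panel, and cells without a Cd44 read lie mostly at the right of the second.

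Procr (Entrez 19124, chr2:155751125-155755478), proposed as a marker of rare multipotent basal cells and known as an endothelial and stromal protein, was rare in both layers. At 50000 reads a read was found in 5 of 72 basal cells (6.94%, 2.29 to 15.5) and 4 of 76 luminal cells (5.26%, 1.45 to 12.9). The summed levels were 6.94 and 9.83 CPM, and their ratio of 0.45 changed sign without luminal cell 54 (-0.48) and reached 1.65 without basal cell 56. On plate B luminal cells had 3 reads in all against 177 in basal cells, a ratio of -2.76 (-2.86 to -2.53), and for plate A against plate C it was 0.91. All basal reads of plate B lay in 3 cells, 72, 82 and 63. These had 4056, 9375 and 2346 CPM of summed endothelial markers, with reads of only 4 of the 12 markers in cell 82. Only 6 of 148 cells reached 10 CPM, 3 in each population, and they held 1640 of 1705 reads (96.2%). A luminal well just below, number 55, had 9.73 CPM and reads of all 12 endothelial markers.

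Each of these 6 cells carried fibroblast or endothelial transcripts at a high level. Luminal cell 54 (333 CPM of Procr) had 33460 CPM of summed fibroblast markers, basal cell 56 (260 CPM) had 31646 CPM, luminal cell 33 (245 CPM) had 13165 CPM and luminal cell 39 (37.4 CPM) had 6605 CPM. Their Pdgfra, which defines fibroblasts, was 647, 1051, 51.2 and 17.1 CPM, and the endothelial Pecam1 and Cdh5 were at 0 in all 4. The whole endothelial list was not: its sum was 5.06, 0, 607 and 322 CPM in them, against a luminal median of 2.31 CPM. Basal cells 72 (96.8 CPM) and 82 (42.0 CPM) had instead 4056 and 9375 CPM of endothelial markers, with Pecam1 at 134 and 15.6 CPM and Cdh5 at 441 and 0 CPM. Cell 72 had reads of 9 of the 12 endothelial markers and cell 82 of only 4. The ratio of Vwf, 1 of the 12, was -1.42 and became 0.47 without cell 82, so the sum of that cell rested largely on Vwf. In cells 72 and 82 Pdgfra was at 0, and they had only 223 and 37.4 CPM of basal markers. The white cell gene Ptprc was at 0 in all 6. The larger of the 2 list values was at least 4056 CPM in each of them, against a median of 117 CPM in the other 142 cells. Only 12 of the 148 cells reached that level, and 6 of these had Procr under 10 CPM. Basal cell 56 kept 7635 CPM of basal markers, 2187 CPM of Cd24a and 1509 CPM of Itga6, and luminal cells 33 and 39 kept 2227 and 2012 CPM of the luminal keratin Krt18. Without the wells with 3 or more endothelial markers, Procr was detected in 2 of 65 basal cells (3.08%, 0.375 to 10.7). Lin- sorting removed cells with the CD31 protein, which Pecam1 encodes. Over all cells, summed endothelial markers were at 271 CPM in basal against 129 CPM in luminal cells, fibroblast markers at 988 and 1651 CPM, pericyte markers at 41.4 and 48.9 CPM and immune markers at 2.73 and 2.10 CPM.

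**Figure D4:**
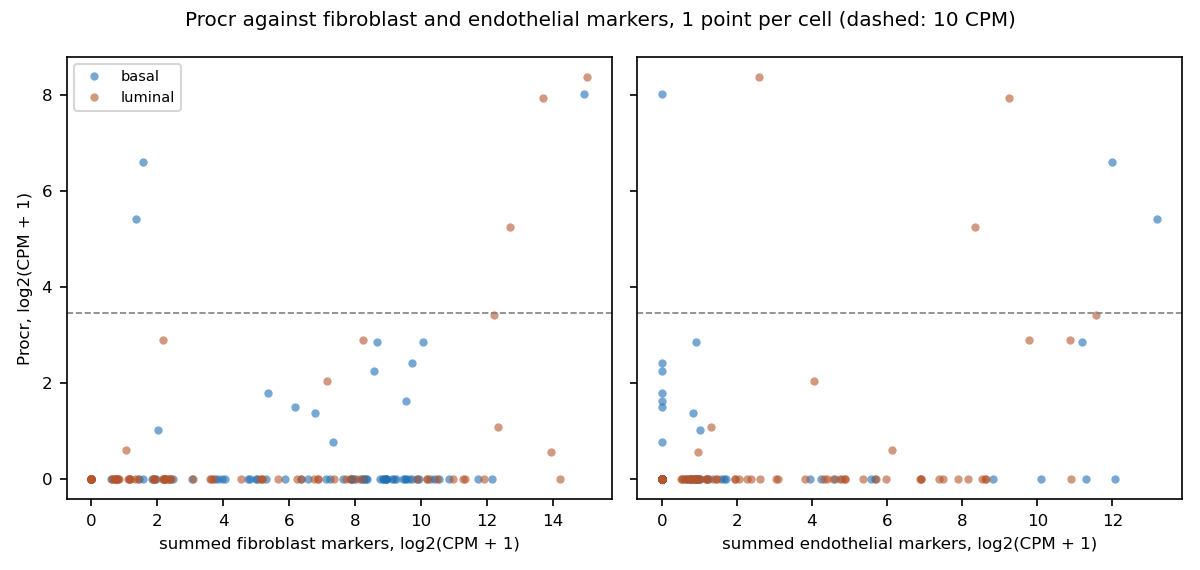
Each point is a cell (blue basal, orange luminal), the y axis its Procr level and the x axes its summed CPM of 9 fibroblast (left) or 12 endothelial markers (right), all as log2(CPM + 1), with a dashed line at 10 CPM. The 6 cells above the line lie far right in at least 1 of the panels, and of the 12 cells with a list value as high, 6 stay below it.

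Tspan8 (Entrez 216350, chr10:115816817-115849893), proposed as a marker of rare quiescent basal stem cells, was rare in basal cells and more abundant in luminal ones. It reached 10 CPM in 2 of 72 basal cells, both on plate A, and in 10 of 76 luminal cells, 2 from plate B and 8 from plate C. The luminal cells were led by number 38 (644 CPM), 51 (413 CPM) and 58 (235 CPM), and the basal ones were number 11 (89.3 CPM) and 36 (14.7 CPM). Both basal cells carried basal markers, at 10759 and 7232 CPM. The summed levels were 1.31 CPM in basal against 25.4 CPM in luminal cells, 11.4-fold higher in luminal cells on the scale with 1 CPM added. The ratio of 3.52 was 3.02 without luminal cell 38, which held 902 of 2899 luminal reads, and 4.29 without basal cell 11, which held 81 of 110 basal reads. On plate B it was 3.32 (3.10 to 3.38) and rested on 1 basal read, and for plate A against plate C it was 3.53. Luminal cell 9 held 288 of the 345 luminal reads of plate B. Without it the luminal level there was 1.61 CPM and the ratio 1.33. At 50000 reads, detection was 4 of 72 basal cells (5.56%, 1.53 to 13.6) and 12 of 76 luminal cells (15.8%, 8.43 to 26.0), wide intervals over cells that are not replicates. Over other draws of the reads the basal share was 1.39 to 4.17%.

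Of the 10 luminal cells with 10 CPM or more of Tspan8, 9 lay above the luminal median of progenitor markers and 4 above that of mature markers. The median of the progenitor list was 7678 CPM in them and 1621 CPM in the other luminal cells. Fibroblast markers stood above the luminal median in 6 of the 10, with 15849 CPM in cell 61 and 0 in cells 58, 9 and 37. Lgr5, with which Tspan8 was combined to find quiescent cells, was 39.2 CPM in basal against 0.351 CPM in luminal cells. The basal level rested largely on cells 92 (911 CPM) and 55 (410 CPM), and the ratio of -4.90 was -3.87 without cell 92. At 50000 reads Lgr5 was found in 12 of 72 basal cells and none of these had Tspan8. Taken as 3 cells of 72 this allows a share of up to 4.17% of basal cells, and the exact upper limit is 4.99%. Multiplying the 2 single shares gives 0.926%. At full depth 4 basal cells had reads of both, out of 6 with Tspan8 and 28 with Lgr5. Lgr5 was at 6.62 CPM in cell 11 and at 0.670 CPM in cell 36, while cells 48 and 58 had 12.7 and 105 CPM of Lgr5 with 1 read of Tspan8 each. Of 9 other tetraspanins, 4 passed 2-fold towards luminal cells and 0 towards basal cells, where 28.4% and 18.3% of all genes did. Cd82 was at 1.41 CPM in basal against 205 CPM in luminal cells, Tspan1 at 1.66 and 153 CPM and Tspan13 at 10.6 and 159 CPM. Cd9, the most abundant of them, lay within 2-fold at 2050 and 2766 CPM.

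**Figure D5:**
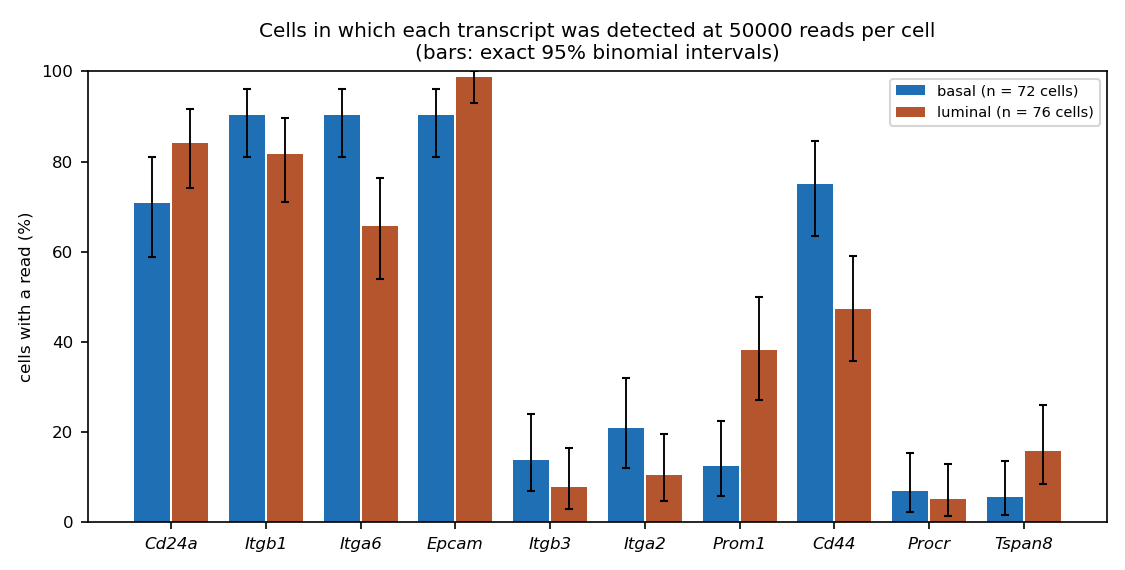
Bars give the percent of basal (blue, n = 72) and luminal (orange, n = 76) cells with at least 1 read of each gene after thinning each cell to 50000 reads, with exact 95% binomial intervals. Over all plates Prom1 was found more often in luminal cells, and Cd44 and Itga6 more often in basal cells. On plate B alone, not drawn, the basal and luminal shares were 68.2% and 62.5% for Itga6 and 36.4% and 37.5% for Cd44. Procr and Tspan8 lie under 20% in both populations.

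Per length, on the RPKM scale, the 10 genes fell into abundant and rare ones in both populations. In basal cells Cd24a (231 RPKM), Epcam (212), Itgb1 (183) and Itga6 (182) led, and their ranges over plates overlapped (135 to 279, 101 to 268, 177 to 194 and 95.8 to 225 RPKM), so their order is not fixed. Cd44 followed at 111 RPKM (51.0 to 140), then Prom1 (25.6), Itga2 (11.8), Procr (4.62), Itgb3 (2.27) and Tspan8 (0.859). In luminal cells Epcam stood first at 726 RPKM and Cd24a second at 335 RPKM, with plate ranges of 687 to 807 and 324 to 358 RPKM that did not meet each other or those of the rest. Itgb1 (58.2, with 45.1 to 85.6 over plates), Itga6 (50.2, with 49.7 to 51.1) and Cd44 (35.2, with 6.52 to 48.8 RPKM) came next, where the range of Itgb1 met both others, and Itgb3 was last at 1.40 RPKM. Tspan8 was last in basal cells and, at 16.7 RPKM, above Procr, Itga2 and Itgb3 in luminal cells. An Epcam level above that of Itgb1 was thus clear in luminal cells and not in basal ones.

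Transcripts of paired integrin chains were found in the same cells about as often as their single shares give. Itga6 and Itgb1 were both detected in 61 of 72 basal cells (84.7%, product of shares 81.5%) and in 46 of 76 luminal cells (60.5%, product 53.7%). Itga2 came with Itgb1 in all 15 basal and in 6 of 8 luminal cells that had it. Itgb3 came with its partner Itgav in 8 of 10 basal and 4 of 6 luminal cells. Itgb4, the other β chain of Itga6, was found beside it in 15 basal and 16 luminal cells. Of 10 other integrin chains, 3 passed 2-fold towards basal cells (Itga1 with 27.4 and 3.25 CPM, Itga8 with 72.4 and 20.7 CPM, Itga9 with 20.2 and 1.58 CPM) and 1 towards luminal cells (Itgb5 with 23.1 and 51.8 CPM). Among all genes these shares were 18.3% and 28.4%, and on plate B 17.2% and 41.4%. The median ratio of the chains was -0.52 against -0.48 for the 10 surface markers, but on plate B the medians were 0.15 and -0.66. There 1 chain passed 2-fold towards basal and 3 towards luminal cells. Itga1 fell to a ratio of -0.80 from -2.74 without basal cell 37, and Itgb5 to 0.91 from 1.13 without luminal cell 70, both then within 2-fold.

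The gated genes Cd24a and Itgb1 were both detected in 48 of 72 basal and 56 of 76 luminal cells at 50000 reads, which left 24 basal cells without a read of 1 or both. Among 20 other surface markers used for sorting that passed the gene filter, 9 passed 2-fold towards luminal and 7 towards basal cells. The shares of all genes were 28.4% and 18.3%. Icam1, an adhesion protein, had 767 CPM in basal against 89.1 CPM in luminal cells, a ratio of -3.09 and -2.91 on plate B, further from 0 than that of Itgb1. Towards luminal cells, Alcam had 44.4 and 341 CPM, and Ly6a, which encodes Sca-1, had 55.4 and 839 CPM. Cd14 and Cd55, used for luminal progenitors, had 4.42 and 287 CPM and 0.452 and 101 CPM. Muc1, an apical mucin, had 0 reads in basal cells, a level of under 0.0357 CPM (3 reads in the population), and 220 CPM in luminal cells. These 6 genes kept their direction on plate B.

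Within a population the abundant markers varied largely on their own. Over the 15 pairs of the 6 markers found in at least 20% of thinned cells (Cd24a, Itgb1, Itga6, Epcam and Cd44, with Itga2 in basal and Prom1 in luminal cells), rho ran from -0.06 to 0.47 with a median of 0.17 in basal cells, and from -0.05 to 0.23 with a median of 0.15 in luminal cells. The highest over all plates were Itga6 with Epcam (0.47, with 0.42 on plate A and 0.22 on plate B) and Epcam with Cd44 (0.43, with 0.31 and 0.35), both in basal cells. Single plates could differ from this. Cd24a with Itga6 in basal cells had 0.17 over all plates, -0.25 on plate A (50 cells) and 0.68 on plate B (22 cells). Each of the 6 also rose with the number of genes detected in a basal cell, by rho of 0.25 to 0.52, and this number is shared by the pairs.

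The genes most like each marker, by rho at 50000 reads in the population where its CPM was higher, were named for the 6 markers found in at least 20% of those cells. For Cd44 in 72 basal cells they were Srxn1 (0.60) and Sltm (0.56), and for Itga6 they were Nedd9 (0.53), Gpbp1 (0.51) and Mtss1 (0.51). For Itgb1 they were Exoc5 (0.48), Entpd1 (0.42) and Psma6 (0.42), and for Itga2 Oxr1 (0.49), Hspe1 (0.45) and Rap1gds1 (0.45). In 76 luminal cells Cd24a was nearest to Atp5d (0.48), Dcaf7 (0.48) and Nop10 (0.47), and Epcam to Rbm47 (0.48), Ppil4 (0.45) and Pfn1 (0.43). No marker had another of the 10 among these. By plate the value of Srxn1 was 0.53 and 0.58, while Nedd9 had 0.53 on plate A but 0.12 on plate B. These are the highest of many genes and were not checked in other cells.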

How the data were processed

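Single-cell RNA-seq of 96 basal and 90 luminal cells was used, with groups and PCR plates from the labels. The authors aligned reads to mm10 with Subread and deposited raw counts per gene and cell, made with featureCounts (versions and the treatment of multi-mapped reads and strand are not given in the sources used here, so genes with close copies or overlaps may share reads). The submitters' processing notes name featureCounts and mm10. Of 27179 gene identifiers, 25275 matched a symbol in RefSeq GRCm38.p6, the same assembly. The other 1904 held 1.94% of counts and were left out. A table of the whole series repeats these counts and was not used.

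The 15 mitochondrial and 124 ribosomal protein genes were removed. Cells with at least 50000 counts and 1000 genes (basal) or 100000 counts and 1500 genes (luminal) were kept, 148 in all, and so were 14773 genes with at least 1 CPM in at least 3 cells, all 10 markers among them. Doublets were not called, because the study inspected capture sites before lysis. Counts were summed per population and scaled to CPM, with 1 CPM added for ratios, and a difference of 2-fold was called. Detection and Spearman rho used cells thinned to 50000 reads. Sums have exact Poisson intervals, shares Clopper-Pearson intervals at 95% confidence, and ratios the binomial interval of the luminal share of reads. RPKM divides CPM by the deposited gene length in kilobases. Further genes were named from the lists at 100 CPM or more in a population with a log2 ratio beyond 2 in either direction, on plate B too, together with the 3 genes of highest rho to each marker. Defining markers of other cells were named beside results, and Itga1, Itga8, Itga9, Itgb5, Itgav, Itgb4, Lgr5 and Cd9 were added after their values were seen. Some genes that meet the rule are not reported here. The members and lists were chosen with earlier results of these data known. The ratio and likeness steps were tested on simulated data. Python 3.11.15 with numpy 2.4.6, pandas 2.3.3 and scipy 1.17.1 was used, and edgeR 4.0.16 in R 4.3.3 gave TMM factors. Alternatives varied filters, plates, scaling, added CPM, depth and single cells.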

Additional observations from a re-analysis of the deposited data

Results flagged for a closer look

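Wells below the thresholds entered no comparison, and they held reads of the markers above the limit that a count of 0 allows. The 10 genes together had 1809 CPM in the 24 basal wells, all with a read (limit 11.3 CPM), and 2165 CPM in the 14 luminal wells, 12 with a read (limit 7.27 CPM), against 3188 and 2895 CPM in kept cells. The makeup differed by gene. Itgb1 was at 1166 CPM in the basal wells against 766 CPM in kept basal cells, and Epcam at 1939 CPM in the luminal wells against 1496 CPM in kept luminal cells, while Cd24a was at 22.6 against 419 CPM and 17.0 against 608 CPM. These wells rest on 265874 and 412543 counts in all, and what sets them apart was not tested.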

How the results depend on the processing

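No paired analysis was possible because the labels number cells, not mice, and no result comes from a test. Of 219 values under alternatives, a ratio counted as moved when it left its counting interval, which is narrow. Among the values that answer a comparison 52 stayed and 24 moved, and among the others 50 stayed, 91 moved and 2 past 2-fold changed sign, both of Itga2: 0.24 on plate B and 1.71 there without basal cell 76. Without luminal cell 1 the plate B ratio of Itga2 was -0.45. Of the ratios within 2-fold that are counted as moved, Procr changed sign on plate B (-2.76, below 0 also without any 1 cell of the plate) and without its top luminal cell (-0.48), Prom1 without its top basal cell (0.53) and on plate B without that of the plate (5.41), and Itgb3 on plate B without basal cell 71 (1.18). All basal Procr reads of plate B came from 3 cells with high summed endothelial markers, of which basal cell 82 had reads of only 4 of the 12. The numbers of markers called at 2-fold stayed within 1.5 times. For Cd24a (0.53) and Itgb1 (-1.65) the ratio was 0.50 and -1.68 with mitochondrial and ribosomal protein genes kept, 1.41 and -1.18 on plate B, 0.21 and -1.97 for plate A against plate C, 0.33 and -1.85 with TMM factors, 0.35 and -1.83 with median-of-ratios factors, and 0.51 and -1.71 for the mean of CPM per cell. Leaving out any 1 cell of plate B, an alternative chosen after seeing the data, gave 1.18 to 1.88 and -1.37 to -0.79. Without the basal cell with the most reads it was 0.65 and -1.52, and without such a luminal cell 0.46 and -1.74. Itgb1 was at -1.61 with 10 CPM added and Cd24a at 0.50 without the wells with endothelial markers. TMM and median-of-ratios scaling moved the ratio of all genes by a median of -0.19 and -0.17 and changed the direction of none of the 10. The Procr share of basal cells was 18.1% without thinning (thinning only removes reads) and the Tspan8 share was 1.39% in the lowest of 10 other draws. For the remaining shifts the cause was not tested.

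Each population is 1 sample, so no ratio has a replicate check. Shares of the rare markers rest on 4 to 12 cells, and plate A held only basal and plate C only luminal cells, so only the 22 basal and 24 luminal cells of plate B compare the populations on 1 plate.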
